A study of Mus musculus with 12 samples.

Results

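10 genes of the p53 and GADD45 damage response were followed in tumour antigen-specific CD8 T cells: Trp53, its antagonist Mdm2, the growth arrest and repair targets Cdkn1a, Ccng1, Zmat3, Sesn2 and Rrm2b, and the 3 GADD45 genes Gadd45a, Gadd45b and Gadd45g. They were chosen by name, and all 10 were among the 48709 genes listed in each of the 3 deposited tables. The animals were wild type C57BL/6 mice, 91 days old by the labels' postnatal age, that carried tumours of TRAMP-C2, a mouse prostate cancer cell line. The sort took live CD45+CD3+CD8+ cells of the draining lymph node positive for the Spas-1 tetramer and negative for Spas-2. The 4 arms received isotype antibody as control, anti-CTLA-4 alone, anti-PD-1 DANA alone (an antibody whose mutated Fc part does not engage Fc receptors) or the combination of both, given on days 3, 6 and 9 by the sample labels or 3, 6 and 8 by the series text. Nodes were taken on day 28, which the sample labels count from treatment and the series text from injection of the tumour. Cells of 5 mice were pooled per arm and split into 3 libraries, 12 in all. The libraries of an arm are therefore technical splits of 1 pool, p-values measure the spread of such splits alone, and arm and pool cannot be told apart.

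The p53 protein is a transcription factor that is held at low level by Mdm2, a ubiquitin ligase that is itself a p53 target, so that p53 and Mdm2 form a feedback loop. After DNA damage p53 is stabilised and induces genes that stop the cell cycle, repair DNA or kill the cell. GADD45 proteins are small stress sensors that bind the kinase MTK1 (Map3k4) upstream of p38 and JNK, and bind PCNA, p21 and Cdk1. Gadd45a is a p53 target, whereas Gadd45b and Gadd45g are also induced by cytokines and antigen receptor signals and promote interferon-gamma production in T cells.

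Gadd45b was the member called after every treatment, so the DNA before its start and those of its relatives Gadd45a and Gadd45g is shown first, from RefSeq on GRCm38.p6. Each window lies within the 250 bases before the RefSeq start, and that of Gadd45a stops where the gene region of the deposited tables begins, upstream of that start. Capitals mark matches, on either strand, to CCAAT, to TATAAA and to the p53 half-site. Gadd45b (chr10:80929841-80930090, plus strand), Gadd45a (chr6:67037458-67037657, minus strand) and Gadd45g (chr13:51846425-51846674, plus strand) read as follows.
Gadd45b: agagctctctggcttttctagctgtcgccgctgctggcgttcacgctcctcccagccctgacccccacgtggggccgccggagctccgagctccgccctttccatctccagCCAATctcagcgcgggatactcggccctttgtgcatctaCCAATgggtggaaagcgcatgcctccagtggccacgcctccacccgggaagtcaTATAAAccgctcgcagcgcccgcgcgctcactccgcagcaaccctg
Gadd45a: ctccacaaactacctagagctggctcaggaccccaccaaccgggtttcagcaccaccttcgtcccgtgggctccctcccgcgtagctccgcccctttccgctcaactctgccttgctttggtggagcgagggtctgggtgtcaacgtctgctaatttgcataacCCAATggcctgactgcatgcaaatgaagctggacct
Gadd45g: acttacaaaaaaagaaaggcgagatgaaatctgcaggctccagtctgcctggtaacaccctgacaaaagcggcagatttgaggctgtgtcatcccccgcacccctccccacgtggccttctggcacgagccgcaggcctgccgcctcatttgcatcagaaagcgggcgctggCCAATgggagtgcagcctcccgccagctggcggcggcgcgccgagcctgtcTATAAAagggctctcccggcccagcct
Gadd45b and Gadd45g each had a TATAAA, starting 46 and 27 bases before the RefSeq start, and all of the 3 had CCAAT. Gadd45a had no TATAAA in the 250 bases but a p53 half-site, GGGCTAGCCC, starting 40 bases before its RefSeq start, inside the gene region of the tables. RefSeq windows were found for 8 of the 10 genes, and not for Rrm2b or Zmat3. A p53 half-site was in those of 5 genes (Ccng1, Cdkn1a, Gadd45a, Mdm2 and Trp53), against 7.13% of all 32851 windows of 250 bases. TATAAA was in the windows of 3 genes (Gadd45b, Gadd45g and Trp53; 12.4% of all), and CCAAT in those of 7 (33.8% of all). The NF-kappa-B site (3.9% of all) and TGANTCA (6.75% of all), the letters of an AP-1 site, had no match in the 8 windows. No match overlapped another in these genes, and a match is a description of letters, not a bound site.

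Each deposited table gives the larger of the 2 arm means in RPKM (reads scaled by exon length and library size), a log2 fold change against isotype and p-values. Whole reads per library were recovered from the steps of these means for 8 members, all but Trp53 and Mdm2, and a library is known by its depth in the arm (deepest, middle or shallowest), not by its replicate number. Depth ranged from 14729713 to 42556869 reads over the 12 libraries. Reads are amplified copies without molecular identifiers, so few reads do not count molecules. Where an arm's mean is not in a table it was estimated from the fold change, and such values are called estimates. The ± after a fold change is a standard error that was derived from the authors' p-value. Values given in threes follow the order anti-CTLA-4, then anti-PD-1 DANA, then the combination, and values of an arm's libraries run from the deepest to the shallowest. The authors' scaling puts fold changes 0.94, 0.82 and 0.11 lower on the log2 scale than scaling by library size. All 10 CD8 T cell markers were read in every arm, with summed levels estimated between 1864 (isotype) and 2522 RPKM (anti-PD-1 DANA). Of these Lat, an adaptor of T cell receptor signalling, fell by 1.45 ± 0.39 after anti-CTLA-4 (adjusted p = 0.0246, the authors' deposited table), and no other was called. In bulk RNA fewer cells that use a gene and less of its RNA per cell cannot be told apart.

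Gadd45b was the member called higher than isotype after every treatment, and Rrm2b the other call, after the combination. By the authors' deposited tables, with a call at an adjusted p (Benjamini-Hochberg) under 0.05, 1 of 10 members was called higher after anti-CTLA-4, 1 after anti-PD-1 DANA and 2 after the combination, and 0 were called lower. Of all 17833 genes tested, 2.74%, 2.43% and 3.94% were called higher, and 1.49%, 1.32% and 3.59% lower. At an unadjusted p under 0.05 there were 6, 4 and 5 members in the authors' deposited tables, against 22.9%, 23.1% and 23.2% of all tested genes. In each comparison 8 of the 10 members had a log2 fold change above 0 (40.6%, 43.5% and 43.0% of all tested genes did). The median member stood at 3.67, 4.0 and 5.08, and the median tested gene at -0.62, -0.45 and -0.42. The 3 comparisons share their isotype libraries, so these counts are not independent of each other.

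**Figure D1:**
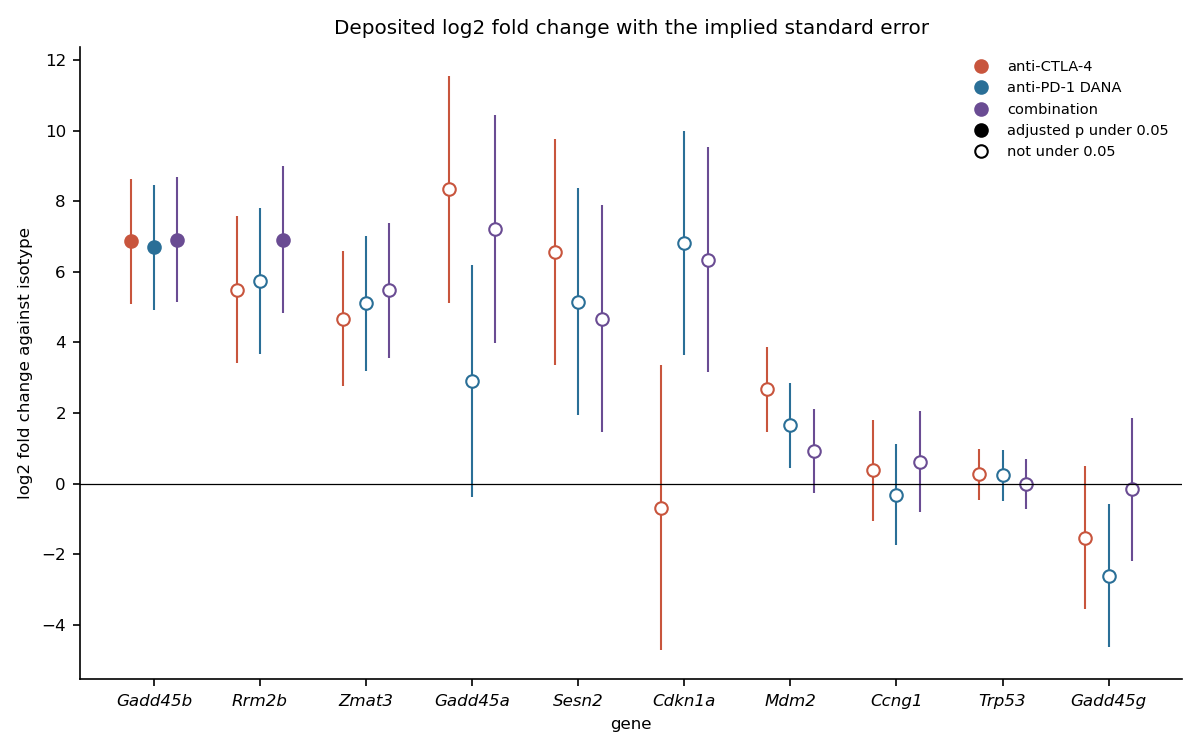
Log2 fold change against isotype of the 10 genes (y axis) in the authors' deposited tables, with bars for the implied standard error, coloured by treatment; filled points have an adjusted p under 0.05. Gadd45b lies between 6.70 and 6.91 in all 3 comparisons, Trp53 lies near 0, and the bars of Gadd45a, Sesn2 and Cdkn1a are the widest.

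Gadd45b, a GADD45 family member induced by cytokine and antigen receptor signals, was nearly absent from isotype libraries and present in most treated ones. In the 3 anti-CTLA-4 libraries it had 817, 148 and 202 reads, which are 21.8, 6.12 and 10.8 RPKM. In the anti-PD-1 DANA libraries it had 207, 727 and 178 reads, or 5.12, 21.5 and 5.80 RPKM. In the combination libraries it had 154, 775 and 4 reads, or 2.86, 19.1 and 0.128 RPKM. The isotype arm was estimated to hold 5.67 to 5.80 reads in all, from 3 tables read separately. Even with all of these reads, at their upper estimate of 7.02, in the shallowest isotype library, that library would stand at 0.231 RPKM. All 6 libraries of the single antibodies lay above that level, and the shallowest combination library lay below it. Arm means were 12.9 ± 8.05, 10.8 ± 9.24 and 7.37 ± 10.3 RPKM (SD, n = 3 libraries), against an estimate of 0.055 to 0.056 in isotype. The ranges of the 3 treated arms overlapped in their upper part, while 2 of the 3 combination libraries lay below all 6 libraries of the single antibodies.

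Gadd45b rose by 6.87 ± 1.78 on the log2 scale after anti-CTLA-4 (adjusted p = 0.0165), by 6.70 ± 1.78 after anti-PD-1 DANA (adjusted p = 0.0212) and by 6.91 ± 1.78 after the combination (adjusted p = 0.00904), as the authors' deposited tables give it. One library gave 70.0%, 65.4% and 83.1% of its reads in these arms. Without the middle library the combination's fold change was 4.63, while leaving out any 1 anti-CTLA-4 or anti-PD-1 DANA library left it between 5.73 and 7.22. The gene lies on chromosome 10 at 80930091 to 80932204, plus strand.

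B cell markers differed between the same arms. The marker calls stand beside 2.74%, 2.43% and 3.94% of all tested genes called higher, and 1.49%, 1.32% and 3.59% called lower. Of 16 such markers 5 were called higher after anti-CTLA-4 (Fcer2a, Ly6d, Ms4a1, Pou2af1 and Spib), 0 higher and 1 lower (Blnk) after anti-PD-1 DANA, and 2 higher (Fcer2a and Ly6d) and 2 lower (Blnk and Cd22) after the combination, in the authors' deposited tables. Their summed level was estimated at 313 RPKM in isotype, 869 after anti-CTLA-4, 284 after anti-PD-1 DANA and 260 after the combination. Cd74 alone stood at 157, 373, 121 and 84.4 RPKM in these arms. The median B cell marker was estimated at 0.642 RPKM in isotype and at 12.1, 2.62 and 1.27 RPKM in the treated arms. Summed myeloid markers stood at 73.1, 103, 74.6 and 4.40 RPKM in isotype and the 3 treated arms, with Adgre1 and Cd14 at 0 in all arms. Lyz2 alone stood at 47.8, 92.1, 54.6 and 2.69 RPKM. Of 9 myeloid markers tested, 4 were called lower after anti-CTLA-4, 1 higher and 1 lower after anti-PD-1 DANA, and 3 lower after the combination in the authors' deposited tables. Some of the marker calls rested on 1 library. Isotype reads were 1, 867 and 1 for C1qa and 0, 3 and 467 for Fcgr3. Ly6d had 1590, 2 and 1 reads after the combination, whereas Fcer2a had 11, 346 and 71 there. Of CD4 and regulatory T cell markers Cd4 was called higher after anti-CTLA-4, at 2.48 RPKM in the authors' deposited table, and their summed level ran from 0.472 (combination) to 7.78 RPKM (anti-CTLA-4). Summed NK cell markers ran from 9.35 (isotype) to 37.1 RPKM (anti-CTLA-4), with Ncr1 at 0. Tyrobp alone was estimated at 0.284 RPKM in isotype and stood at 28.0, 16.1 and 6.13 RPKM in the treated arms. The median NK cell marker was estimated at 1.32 RPKM in isotype and at 0.367, 1.40 and 1.88 RPKM in the treated arms. Itga2 was called lower after anti-PD-1 DANA and after the combination in the authors' deposited tables. Summed erythroid and platelet markers ran from 0 (isotype) to 4.25 RPKM (anti-CTLA-4), with Pf4 and Ppbp at 0. Their part in the Gadd45b result was not tested.

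**Figure D2:**
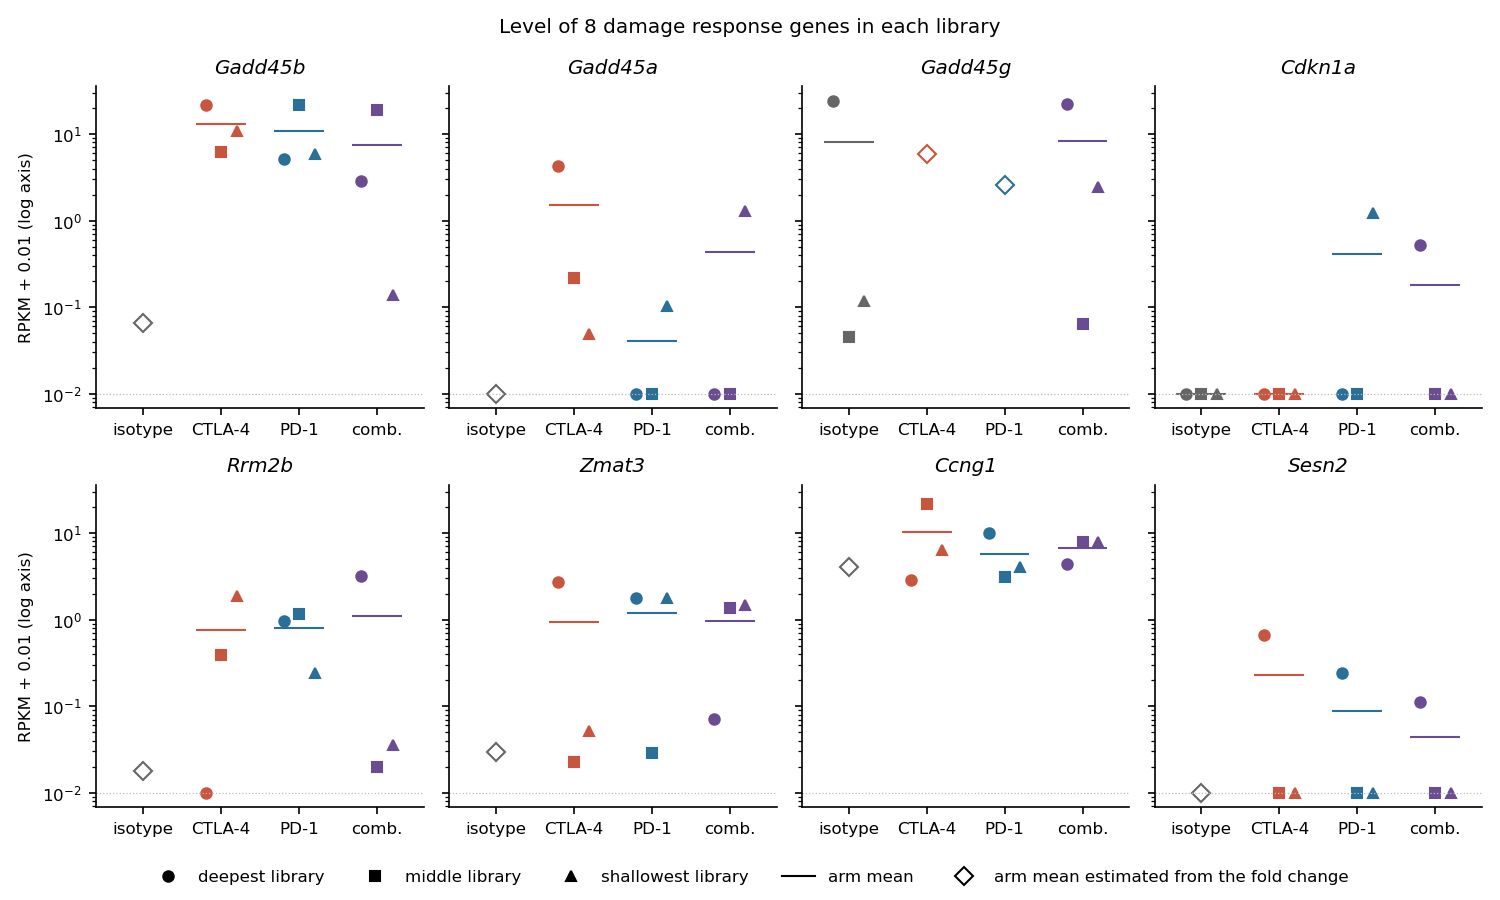
RPKM plus 0.01 on a log axis (y) for 8 genes in each arm (x), 1 filled symbol per library shaped by its depth in the arm, a line at the arm mean and an open diamond where only an estimate of the arm mean exists; the dotted line is 0 reads. For Gadd45b 8 of 9 treated libraries lie at 2.86 RPKM or more, whereas Gadd45a, Cdkn1a and Sesn2 have 1 high library per arm or none.

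Gadd45a, the p53-induced member of the family, was read mainly in single libraries. It had 221, 7 and 1 reads after anti-CTLA-4 (4.23, 0.208 and 0.0385 RPKM), 0, 0 and 4 after anti-PD-1 DANA and 0, 0 and 55 after the combination (1.27 RPKM in that library), and was estimated at 0 reads in isotype. Set against 3 reads over the isotype arm, the anti-CTLA-4 arm had 97.9-fold and the combination arm 15.0-fold more reads per read of depth. These are ratios of amplified reads, nearly all from 1 library, and not lower bounds on the change. The 95% intervals of the log2 fold changes began at 2.02, -3.55 and 0.89. Fitted fold changes were 8.34 ± 3.22, 2.89 ± 3.29 and 7.21 ± 3.23 in the authors' deposited tables, where none was called (lowest adjusted p = 0.211). Among genes whose larger arm mean was 1 RPKM or more it was called after anti-CTLA-4. It passed that filter only through the treated arm, so this call is no separate support. The deepest anti-CTLA-4 library alone gave 96.5% of that arm's reads. An antisense model on the other strand, E230016M11Rik, overlaps the Gadd45a region over 859 bases. Its larger mean was at most 0.0257 RPKM in the authors' deposited tables, and whether reads were counted by strand is not given in the sources used here.

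Gadd45g, the family member best known for cytokine induction, had log2 fold changes below 0 and rested on single libraries in both arms that could be read. It had 937, 1 and 3 reads in the isotype libraries (24.3, 0.0348 and 0.107 RPKM) and 1124, 2 and 71 in the combination libraries (22.5, 0.0533 and 2.46 RPKM). The isotype and combination libraries thus covered nearly the same range. The arm means were 8.15 ± 14.0 and 8.34 ± 12.3 RPKM (SD, n = 3 libraries), and the other two arms were estimated at 5.94 (anti-CTLA-4) and 2.56 RPKM (anti-PD-1 DANA). Log2 fold changes were -1.53 ± 2.02, -2.61 ± 2.02 and -0.17 ± 2.02, with adjusted p = 1 in each of the authors' deposited tables. Without the deepest isotype library they were 5.40, 4.33 and 6.79. The direction of Gadd45g after each single antibody therefore turned with 1 isotype library. After the combination the value was near 0, and it also turned without the middle (0.43) or the shallowest combination library (0.30).

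Trp53 itself, the gene of the p53 protein, was well expressed in every arm and did not pass a test. Its arm means were 43.0 RPKM after anti-CTLA-4, 37.7 after anti-PD-1 DANA and 19.3 after the combination in the authors' deposited tables. The isotype mean was estimated at 18.1 to 18.6 RPKM. Bounds on that estimate, from the range of scaling between libraries, ran from 15.2 to 23.2 RPKM. The log2 fold changes were 0.27, 0.23 and -0.01, each ± 0.72, with adjusted p = 1 throughout in the authors' deposited tables. Scaled by library size they were 1.21, 1.05 and 0.09, so the third changed sign with the scaling. The 95% intervals on the authors' scale ran from -1.15 to 1.68, from -1.18 to 1.65 and from -1.43 to 1.40. A processed copy, Trp53-ps, was listed at 0.

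Mdm2, which encodes the ligase that degrades p53, had its highest mean after anti-CTLA-4 and passed no test. Its treated arm means were 19.1, 8.37 and 3.10 RPKM in the authors' deposited tables, above an isotype estimate of 1.52 to 1.56 RPKM. The log2 fold changes were 2.67, 1.65 and 0.92, each ± 1.20, in the authors' deposited tables (lowest adjusted p = 0.392, after anti-CTLA-4). None was called, and the treatments did not differ from each other beyond their error. Reads per library could not be solved for Trp53 or Mdm2, so the spread of their means over libraries is not known.

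The cell cycle inhibitor gene Cdkn1a, which encodes p21 and is the classical p53 target for arrest, was almost silent. It was listed at 0 in both arms of the authors' deposited table for anti-CTLA-4. All 65 reads after anti-PD-1 DANA came from the shallowest library (1.21 RPKM there), and all 49 after the combination from the deepest (0.518 RPKM there). Set against 3 reads in isotype, these arms had 21.3-fold and 13.4-fold more reads per read of depth, which are not lower bounds on the change. The 95% intervals of the log2 fold changes began at 0.58 and 0.09. Neither was called (adjusted p = 0.450 and 0.560, the authors' deposited tables).

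Sesn2, a stress-induced inhibitor of mTORC1 signalling, showed the same shape of data. It had 67, 26 and 15 reads in the treated arms, in each case all from the deepest library of the arm (0.652, 0.234 and 0.101 RPKM there), and an isotype estimate of 0. Set against 3 isotype reads, these arms had 28.7-fold, 8.5-fold and 4.1-fold more reads per read of depth, which are not lower bounds on the change. The 95% intervals of the log2 fold changes began at 0.27, -1.13 and -1.64. None was called (adjusted p = 0.524, 0.967 and 1 in the authors' deposited tables).

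Ccng1, which encodes cyclin G1, a p53 target that recruits a phosphatase to Mdm2, was the most evenly read of the solved members. Its libraries stood at 2.89, 21.8 and 6.40 RPKM after anti-CTLA-4, 9.94, 3.13 and 4.02 after anti-PD-1 DANA and 4.33, 7.94 and 7.81 after the combination. The isotype mean was estimated at 4.03 to 4.11 RPKM, inside the range of the libraries of each single antibody. Bounds on that estimate, from the error of the fit on held-out genes, ran from 3.38 to 4.84 RPKM. The lowest combination library lay within these bounds. Fold changes were 0.37, -0.32 and 0.61, each ± 1.43 (adjusted p = 1 in the authors' deposited tables). The second was 0.50 when scaled by library size, and the first was -0.78 without the middle anti-CTLA-4 library.

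Zmat3, an RNA-binding protein gene induced by p53, had a log2 fold change above 0 in every comparison and was not called in the authors' deposited tables. Reads were 647, 2 and 5 after anti-CTLA-4 (2.70, 0.0129 and 0.0419 RPKM), 461, 4 and 349 after anti-PD-1 DANA (1.78, 0.0185 and 1.78 RPKM) and 21, 352 and 290 after the combination (0.0610, 1.36 and 1.46 RPKM). The isotype arm was estimated at 12.4 to 13.4 reads in all, or 0.0189 to 0.0204 RPKM. Zmat3 thus exceeded 1 RPKM in 1 of 3, 2 of 3 and 2 of 3 treated libraries. The log2 fold changes were 4.67, 5.10 and 5.48, each ± 1.92, with adjusted p = 0.270, 0.183 and 0.105 in the authors' deposited tables. With adjustment over tested genes alone the third adjusted p was 0.0385. Among genes whose larger arm mean was 1 RPKM or more Zmat3 was called after anti-PD-1 DANA. It passed that filter only through the treated arm, so this call is no separate support. Without the deepest anti-CTLA-4 library the first fold change was -0.63.

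Rrm2b, which encodes the p53-inducible small subunit of ribonucleotide reductase and supplies deoxynucleotides for DNA repair outside S phase, was called after the combination on the reads of 1 library. The combination libraries held 876, 2 and 4 reads (3.20, 0.00971 and 0.0253 RPKM), so the deepest gave 99.3% of them. The anti-CTLA-4 libraries held 0, 47 and 179 reads (0, 0.382 and 1.89 RPKM) and the anti-PD-1 DANA libraries 198, 200 and 36 (0.963, 1.16 and 0.231 RPKM). Isotype was estimated at 3.85 to 4.20 reads in all. Were all of them, at their upper estimate, in 1 isotype library, it would stand at 0.0318 RPKM, below all 3 anti-PD-1 DANA libraries, below 2 of the anti-CTLA-4 libraries and below 1 of the combination libraries. Rrm2b rose by 6.91 ± 2.08 after the combination (adjusted p = 0.0369) in the authors' deposited table, and stood at 5.49 ± 2.08 (adjusted p = 0.191) and 5.74 ± 2.08 (adjusted p = 0.157) after anti-CTLA-4 and anti-PD-1 DANA. Without the deepest combination library its fold change there was 0.87. The arm with the call was the one with the least even reads, and anti-PD-1 DANA, with 36 reads or more in each library, was not called.

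**Figure D3:**
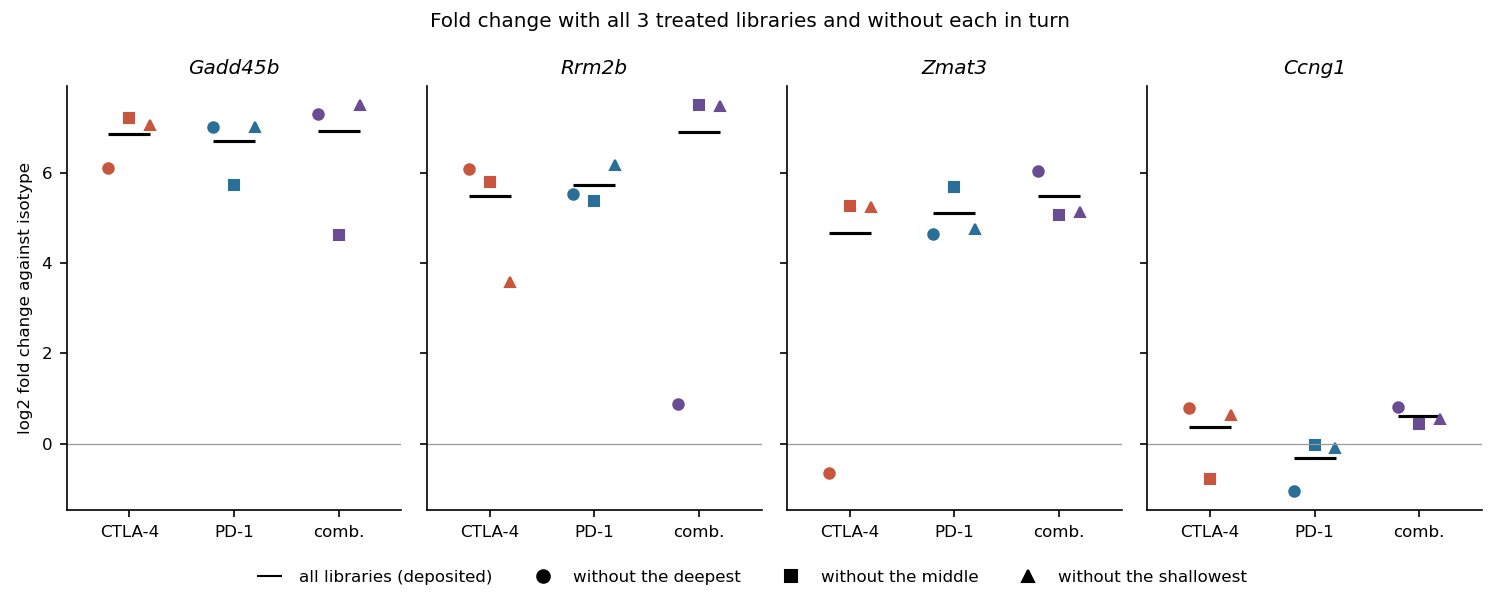
Log2 fold change against isotype (y axis) of 4 genes for each treatment (x axis): the bar is the deposited value, and each symbol is the value computed from the recovered reads when the library of that depth is left out. Gadd45b stays at 4.63 or more in all cases, Rrm2b after the combination falls to 0.87 without the deepest library, and Zmat3 after anti-CTLA-4 falls to -0.63.

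Over the 8 members with recovered reads, 22 arms held at least 1 read, 14 of them had reads in all 3 libraries and 13 had 80% or more of their reads in 1 library. Such concentration was common in the tables. Among all solved genes with 4 reads or more but under 100 in an arm, 52.4% (isotype) to 67.5% (anti-CTLA-4) had 80% or more in 1 library. Of those with 100 or more but under 300 reads 70.1% (anti-CTLA-4) to 82.6% (isotype) did, and of those with 300 or more but under 1000 reads 42.1% (anti-CTLA-4) to 79.4% (isotype). The deepest anti-CTLA-4 library held most of that arm's reads of Gadd45a, Gadd45b, Sesn2 and Zmat3, while Rrm2b and Ccng1 had most of theirs in another.

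Whether the treatments differed from each other in these genes was tested through the differences of the 3 log2 fold changes, 3 pairs for each of the 10 members. None passed, each Benjamini-Hochberg value over all listed genes being 1. The smallest unadjusted values were 0.0946 for anti-CTLA-4 against anti-PD-1 DANA, 0.146 for the combination against anti-CTLA-4 and 0.185 for the combination against anti-PD-1 DANA, so 0 members were under 0.05. Over all tested genes 0% were called for the first pair, 0.432% higher and 0.471% lower for the second, and 0.196% higher and 0.252% lower for the third. For Gadd45b the combination differed from anti-CTLA-4 by 0.05 (95% interval -3.43 to 3.53) and from anti-PD-1 DANA by 0.22 (-3.26 to 3.70), intervals wide enough to hold differences of several doublings. For Rrm2b these differences were 1.42 (-2.65 to 5.49) and 1.17 (-2.90 to 5.25), so its call after the combination is not shown to set that arm apart. For Mdm2 the combination was -1.75 (-4.10 to 0.61) from anti-CTLA-4, and anti-CTLA-4 stood 1.02 (-1.34 to 3.38) above anti-PD-1 DANA. For Trp53 the interval was narrowest, with the combination at -0.28 (-1.70 to 1.13) from anti-CTLA-4.

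The calls in the rest of the pathway stand beside 2.74%, 2.43% and 3.94% of all tested genes called higher, and 1.49%, 1.32% and 3.59% called lower. Of 14 p53 regulators tested (kinases, ligases and cofactors of p53), Rchy1, a p53-directed ubiquitin ligase also called Pirh2, fell by 4.59 ± 1.32 after the combination (adjusted p = 0.0262 in the authors' deposited table) and none was called otherwise. The ribosomal proteins Rpl5 and Rpl11, which restrain Mdm2, were abundant, with larger means of 203 to 322 RPKM in the authors' deposited tables, and were not called. Of 20 arrest, repair and metabolism targets 1 was called higher and 1 lower, both after the combination: the kinase gene Plk3 at 7.46 ± 1.89 (adjusted p = 0.00786) and the cell adhesion gene Ninj1 at -7.41 ± 1.72 (adjusted p = 0.00315), per the authors' deposited table. Reads per library were not solved for Rchy1, for Ninj1 or for Plk3 after the combination, so the spread of these calls over libraries is not known. Btg2, an antiproliferative p53 target, stood at -0.19, -1.22 and -2.07 without a call. The medians of these lists were -0.88, -0.51 and -0.30 (regulators) and -0.76, -0.42 and -0.33 (arrest and repair), close to those of all tested genes.

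Of 14 p53 death targets tested, 0 were called after anti-CTLA-4, 1 after anti-PD-1 DANA and 2 after the combination, all higher, in the authors' deposited tables (2.74%, 2.43% and 3.94% of all tested genes were). Pidd1, the death domain protein that activates caspase-2, rose by 7.21 ± 1.90 after anti-PD-1 DANA (adjusted p = 0.0203) and by 7.03 ± 1.90 after the combination (adjusted p = 0.015), and stood at 6.32 ± 1.90 after anti-CTLA-4 (adjusted p = 0.0537), in the authors' deposited tables. Its reads were 130, 386 and 1 after anti-CTLA-4, 487, 193 and 459 after anti-PD-1 DANA and 3, 447 and 199 after the combination, so it was read in all 3 anti-PD-1 DANA libraries. Bbc3, the BH3-only death protein PUMA, rose by 7.24 ± 2.25 after the combination (adjusted p = 0.0474) in the authors' deposited table. Its reads there were 0, 9 and 787, so 98.9% came from 1 library. Bax, the most abundant of the list, had its larger mean in isotype at 66.6 RPKM and was not called (-2.08, -1.46 and -0.76 in the authors' deposited tables). The medians of the list were 1.07, -0.58 and 0.98.

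None of 20 genes listed as partners of GADD45 proteins and p21 (p38 kinases, cyclins and cyclin-dependent kinases, Pcna) was called in any comparison, with medians of -0.67, -0.08 and -0.86. The most abundant were Crip1 (up to 237 RPKM), which the list holds although it is not a known partner of either, and the cyclin genes Ccnd2 (up to 92.3) and Ccnd3 (up to 41.3). Of the other ribonucleotide reductase subunits, Rrm1, the large subunit shared by both small subunits, rose by 6.89 ± 1.74 after anti-PD-1 DANA (adjusted p = 0.0143) and stood at 4.89 and 5.29 after anti-CTLA-4 and the combination in the authors' deposited tables. Rrm2, the S phase small subunit, stood at 2.86, 3.14 and -4.97 without a call. Of 5 other CDK inhibitors, Cdkn2b, which encodes p15, rose by 7.95 ± 2.12 after the combination (adjusted p = 0.0134) to 9.91 RPKM in the authors' deposited table. Cdkn2d and Cdkn1b, the most abundant others, were not called. Reads per library were not solved for Rrm1 or Cdkn2b, so the spread of their calls over libraries is not known.

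Of 23 immediate early and dissociation stress genes tested, 1 was called higher and 1 lower after each single antibody, and 0 higher and 2 lower after the combination, beside the shares of all tested genes given above. Rgs1 rose by 8.14 ± 1.72 and Hspa1a fell by 8.31 ± 1.65 after anti-CTLA-4, in the authors' deposited table. Rgs1 rose by 7.37 ± 1.72 and Dusp2 fell by 2.35 ± 0.58 after anti-PD-1 DANA, and Dusp2 and Fosb fell by 1.95 ± 0.58 and 7.82 ± 2.17 after the combination, in the authors' deposited tables. Reads per library were not solved for Rgs1, Hspa1a, Dusp2 or Fosb, so the spread of their calls over libraries is not known. The list's medians were -0.74, -1.08 and -1.14. Its summed level was estimated at 843 RPKM in isotype and at 986, 705 and 562 in the 3 treated arms.

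The genes whose 3 log2 fold changes lay nearest to those of Gadd45b, among 3651 tested genes of similar level, were Glb1, Zscan21, Abhd11, Chmp2b and Tbx21, at Euclidean distances of 0.369 to 0.415. Tbx21, which encodes the T cell transcription factor T-bet, stood at 7.27, 6.65 and 6.97 in the authors' deposited tables, and Glb1, the lysosomal beta-galactosidase, at 7.19, 6.88 and 6.94. Among the nearest to Rrm2b, of 854 genes, were Nfkbil1, Trav13d-1, Zfp595 and Pi4k2a, at distances of 0.229 to 0.584. The 3 fold changes share the isotype libraries.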

How the data were processed

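RNA from 12 libraries of sorted CD8 T cells (0.25 ng of RNA, 21 preamplification cycles, Smart-seq2-type protocol with Nextera adapters) was sequenced on an Illumina HiSeq instrument and, per the labels' protocols, quantified with CLC Genomics Workbench. Per the submitters' processing notes the build was GRCm38.p5. Version, annotation release and statistical model: not given in the sources used here. Each deposited table by the authors compares 1 treatment with isotype. The authors' larger group mean is in RPKM, read as such because low means are sums of whole reads over exon length and library size. The log2 fold change deposited by the authors is positive where the treated arm is higher. The signed fold change, here called a score because it is never between -1 and 1, was deposited by the authors and was used only to check the sign. The p-values in the authors' deposited tables are corrected over all 48709 listed genes, of which 17833 were tested.

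Groups came from the sample labels. The members and lists were chosen with earlier results of these data known. All 10 members are named, and of each of 7 gene lists the genes called in any table and, with fewer than 3, the most abundant up to 3. For called members the 5 nearest tested genes by Euclidean distance over the 3 fold changes are named, each of the 3 larger means being within 3 times the member's, except a gene that is not reported here.

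Whole library sizes were found from low means of genes listed at the same coordinates in GENCODE M21, and whole reads per library were then solved where at most 0.05 solutions were expected by chance. Of the means tried 69.6% to 79.9% were solved (0.29% to 0.52% when lengths were off by 1 base). The length used for Cdkn1a was the only one of 1471 whole lengths that fitted its tables. A relation between reads and the log2 fold change was fitted on part of the solved genes. On held-out genes the median of its absolute error was 0.020 to 0.041 and the 95th percentile 0.086 to 0.26. The relation gave the estimates of arms that a table leaves out. An implied standard error, which assumes a Wald test, divides the size of the log2 fold change by the normal quantile of p. Differences between treatments used equal variances where the 3 errors lay within 5% of each other and an upper bound elsewhere, with Benjamini-Hochberg adjustment over all listed genes and a two-sided normal p. Solving reads with library sizes and lengths known, the fitted relation and the differences between treatments were each tested on simulated data. The search for library sizes, the search for member lengths and the Wald assumption were not. Alternatives were adjustment over tested genes, Bonferroni, library size scaling, filters of 1 and 5 RPKM, the upper bound of the error and, added after seeing the data, leaving out a library. Analyses used Python 3.11.15, pandas 2.3.3, NumPy 2.4.6, SciPy 1.17.1 and matplotlib 3.10.9.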

Additional observations from a re-analysis of the deposited data

How the results depend on the processing

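Counts of called members did not change under library size scaling (1, 1 and 2, in the order anti-CTLA-4, then anti-PD-1 DANA, then the combination). Bonferroni adjustment left 0, 0 and 0. Among genes of 1 RPKM or more there were 2 after anti-CTLA-4 (with Gadd45a) and 2 after anti-PD-1 DANA (with Zmat3), and among genes of 5 RPKM or more 1 after the combination (Gadd45b). These filters read the larger of the 2 arm means, and these members passed only through the treated arm. The filtered calls are therefore no separate support. Zmat3 passed after the combination when the Benjamini-Hochberg adjustment covered tested genes only (0.0385). Calls over all genes, 754 (488 higher), 669 (434 higher) and 1343 (703 higher), became 1616, 1596 and 2238 with adjustment over tested genes, 27, 34 and 74 with Bonferroni, and 2055, 1989 and 2314 at 1 RPKM or more. Library size scaling gave 1367 (1188 higher, 179 lower) for anti-CTLA-4 and 1217 (1051 higher, 166 lower) for anti-PD-1 DANA. Between treatments, adjustment over tested genes gave 3 calls for anti-CTLA-4 against anti-PD-1 DANA, and 353 and 224 for the combination against each. For the combination's pairs the upper bound of the error gave 10 and 6, and library size scaling 291 (24 higher) and 228 (31 higher), against 161 and 80.

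Library size scaling turned 3 member values that were near 0 or rest on no reads: Cdkn1a after anti-CTLA-4 (0.26), Ccng1 after anti-PD-1 DANA (0.50) and Trp53 after the combination (0.094). Leaving out 1 library, an alternative chosen after seeing the data and without a test, kept direction and size (within 1 standard error) in 54 of 65 cases. Some of the 65 removed a library with 0 reads, which cannot lower the fold change. Sesn2 after anti-CTLA-4 thus went from 6.55 to 7.13 without the middle library. Such cases could not fail, so 54 of 65 overstates how stable the values were. Another 7 cases, not among the 65, left 0 reads in the treated arm and at most 3 estimated in isotype, so that no fold is given: Sesn2 without the deepest library of each treated arm, Cdkn1a after anti-PD-1 DANA and after the combination, and Gadd45a after the same treatments. The fitted relation put all 7 below 0, from -0.89 to -0.48, against deposited values above 0. Gadd45g without the deepest isotype library went to 5.40, 4.33 and 6.79 (without another isotype library as low as -2.11, -3.19 and -0.74), and after the combination to -3.04, 0.43 and 0.30 without the deepest, middle and shallowest library. After anti-CTLA-4, Ccng1 ranged from -0.78 (without the middle library) to 0.79 and Zmat3 from -0.63 (without the deepest) to 5.25. Gadd45a after anti-CTLA-4 fell to 4.55, Gadd45b after the combination to 4.63 and Rrm2b after the combination to 0.87.

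No paired analysis was possible because the tables hold comparisons and the recovered libraries carry no replicate number. For the same reason the planned count models, other normalizations and blocks were not run. For genes with a few reads in 1 library, the lack of a call does not show that there was no difference.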
